A study of Rattus norvegicus with 10 samples.

Results

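Negatively charged CDR3 are those heavy chain CDR3 sequences of productive reads in which lysine and arginine together are outnumbered by aspartate and glutamate by at least 2 residues, a net charge of −2 or less. Over the 10 animals, 29725 of 215200 unique CDR3 (13.8%) met this rule. Counted per animal, there were 30159 such sequences, because some were read in several animals. The remaining CDR3, called other CDR3 here, had a net charge of −1 or more. The animals were Wistar rats and littermates, 5 immunized with recombinant human HuD, a neuronal RNA-binding protein, and 5 with keyhole limpet hemocyanin modified with dinitrophenyl (DNP). All received their immunogen in Freund's adjuvant, complete at first and incomplete in 3 boosts, and no unimmunized animals were analysed here. RNA of whole spleen cell suspensions gave 1 library of heavy chain variable domains per animal. As immunoglobulin transcripts alone were amplified, no other cell type markers could be checked in these data.

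The CDR3 is the loop of the heavy chain that is encoded where the V, D and J genes are joined, and it lies at the centre of the antigen binding site. Its first residues come from the IGHV gene, its last ones from the IGHJ gene, and the middle from the IGHD gene and from bases added or removed at the joints. Aspartate and glutamate carry a negative charge at neutral pH, and lysine and arginine a positive one. Most rat IGHV genes end in an arginine that becomes the second residue of the CDR3, and most IGHJ genes place an aspartate just before its last residue.

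The negatively charged CDR3 with the most reads in each animal show what these loops look like. Those of at most 14 residues are spelled out in amino acids, as deposited.
HuD1: ATEDYGLTGFAY
HuD2: DANYDGTYYYFDY
HuD3: ASLNYGGYIEEFDY
HuD4: TRVDTMGTEDY
DNP1: TTDNYSAPFDY
DNP2: ARHEATEGIDFDY
DNP4: ASYYYDGYYAMDA
DNP5: ATEDYGYPFAY
None of these 8 sequences was read in a second animal, and their net charge was −2 or −3. The most common shared members followed a narrower pattern and are shown because they were read in the most animals.
Read in 9 animals: VREELGVDY
Read in 9 animals: VREDLGVDY
Read in 8 animals: VREEFGVDY
Read in 7 animals: AREEFGVDY
Read in 6 animals: AREDLGVDY

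The libraries held 60647 to 259834 productive reads per animal, where a read is 1 sequence after collapsing copies with the same molecular tag. The paper states that this tag proved too short, so that bases of the CDR3 itself served as an additional tag. Read numbers per CDR3, used below for expansion, rest on this combined tag, and its effect on them was not tested. They gave 17360 to 39753 unique CDR3 in the HuD animals and 6568 to 32154 in the DNP animals. DNP3 was the smallest library. Shares of reads describe transcripts of all spleen cells, so that more cells and more transcript per cell cannot be told apart. Each animal is 1 replicate.

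Between 11.4% and 14.7% of the unique CDR3 of an animal were negatively charged. The members made up 13.2%, 14.4%, 11.4%, 13.7% and 13.97% of the unique CDR3 in HuD1 to HuD5. In DNP1 to DNP5 they made up 11.6%, 13.3%, 14.7%, 14.1% and 13.96%. The 2 immunogens covered almost the same range. The exact (Clopper-Pearson) 95% intervals of these shares had half-widths of 0.347 to 0.863 percentage points, which cover counting error only. They treat each unique CDR3 as independent, although large groups of closely related CDR3 were present in some animals, and so may be too narrow. The means were 13.3% ± 1.16 in HuD animals and 13.5% ± 1.20 in DNP animals (SD, n = 5 each), a difference of −0.194 percentage points (two-sided exact permutation test over all sets of 5 of the 10 animals, p = 0.746). Most members sat at the edge of the rule. A charge of exactly −2 was found in 10.4% ± 0.741 of the unique CDR3 (SD, n = 10), −3 in 2.48% ± 0.375 and −4 in 0.462% ± 0.221. Just outside the rule, 27.3% ± 0.790 of the unique CDR3 had a charge of −1, and 35.3% ± 1.23 were neutral.

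**Figure D1:**
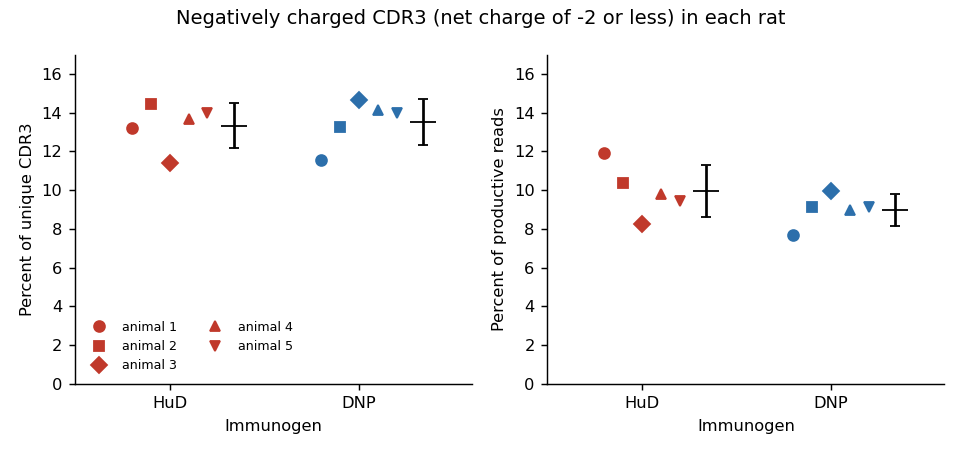
Negatively charged CDR3 as percent of the unique CDR3 (left) and of the productive reads (right), with a point per rat, marker shapes for the animal number, and a bar with the mean and SD of 5 animals beside each immunogen. The HuD and DNP animals overlap in both panels, and shares of reads lie below shares of unique CDR3 in every animal, with means of 9.95% and 8.98% in the right panel.

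Members took a smaller part of the reads than of the unique sequences. Their part of the productive reads was 11.9%, 10.4%, 8.23%, 9.79% and 9.42% in HuD1 to HuD5. It was 7.69%, 9.11%, 9.97%, 8.97% and 9.15% in DNP1 to DNP5. HuD1 and HuD2 lay above all DNP animals, and HuD3, HuD4 and HuD5 lay within the DNP range. The means were 9.95% ± 1.35 in HuD animals and 8.98% ± 0.821 in DNP animals (SD, n = 5 each), a difference of 0.970 percentage points that did not pass the threshold (two-sided exact permutation test, p = 0.230). Without HuD3 the difference was 1.40 and passed it (exact permutation test, p = 0.0476). Without HuD1 it was 0.478 and did not pass (exact permutation test, p = 0.429).

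Negatively charged CDR3 were longer than the other CDR3 in all 10 animals. Their mean length in residues was 13.1, 13.0, 13.1, 12.9 and 13.7 in HuD1 to HuD5, against 11.7, 12.04, 12.01, 11.99 and 12.2 for the other CDR3 of the same animals. In DNP1 to DNP5 it was 12.8, 13.5, 14.2, 13.5 and 12.4, against 11.5, 12.4, 11.8, 11.9 and 11.4 for the other CDR3. Members had the higher mean in each animal. Over the animals, members averaged 13.2 ± 0.520 and other CDR3 11.9 ± 0.313 residues (SD, n = 10), a difference of 1.33 ± 0.447 (two-sided exact sign-flip permutation test, p = 0.00195, the smallest this test can give). A longer loop has more positions that can carry a charge, so that length and charge are linked by the counting rule itself. Between the immunogens the length of members differed by −0.0941 residues (13.2 ± 0.326 in HuD and 13.3 ± 0.705 in DNP animals, SD, n = 5 each, exact permutation test, p = 0.778).

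Among CDR3 of 1 length, the share of members was larger for long than for short loops, with a wide scatter between animals from 17 residues on. At 5 residues 3.03% ± 1.47 (SD, n = 10) of the unique CDR3 were negatively charged, at 12 residues 12.6% ± 2.18 and at 16 residues 20.1% ± 3.05. At 17 residues the mean was 31.0% ± 17.4, with a wide spread between animals from 19.3% in DNP2 to 75.0% in DNP3. This spread came with groups of closely related sequences. In DNP3, 278 CDR3 that were linked by steps of 1 residue, led by a 17-residue CDR3 with IGHV2-6 and IGHJ2, held 265 members, which was 27.5% of all members and 40.9% of their reads in that animal. In DNP4 a 17-residue group of 330 CDR3 with IGHV5-31 and IGHJ4 was wholly negatively charged and held 2307 reads. A 17-residue group in HuD1, with IGHV5-25 and IGHJ2, held 115 members with 2688 reads. HuD5 had an 18-residue group of 142 members with IGHV5-19 and IGHJ4. Whether such a group is 1 clone with somatic mutations or also holds sequencing errors was not tested. With each linked group counted once, by its CDR3 with the most reads, members were still longer, by 1.06 residues (exact sign-flip permutation test over 10 animals, p = 0.00195).

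**Figure D2:**
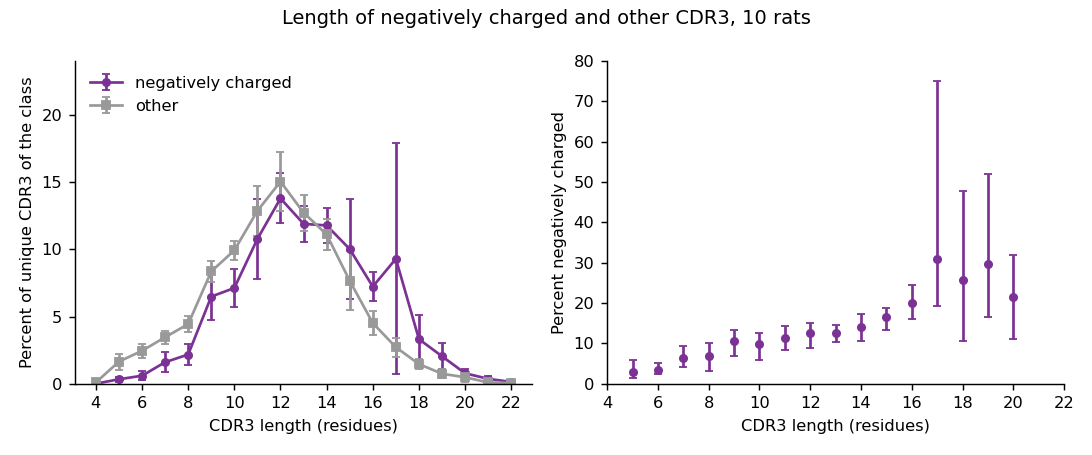
Length distribution of negatively charged and other CDR3 as percent of the unique CDR3 of each class (left, mean and SD of 10 rats), and percent negatively charged at each length (right, mean with lowest and highest rat). The distribution of members lies to the right of that of other CDR3, with means of 13.2 and 11.9 residues, and at 17 residues DNP3 reaches 75.0%.

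The IGHJ genes of members differed from those of other CDR3, most of all for IGHJ3. This gene was used by 12.8%, 10.7%, 8.41%, 6.49% and 8.98% of the members in HuD1 to HuD5, against 23.98%, 23.3%, 22.7%, 21.0% and 25.2% of their other CDR3. In DNP1 to DNP5 it was used by 7.83%, 9.94%, 13.7%, 10.4% and 7.002% of the members, against 21.6%, 23.3%, 22.9%, 22.1% and 20.2% of the other CDR3. The highest share among members was thus below the lowest share among other CDR3. IGHJ3 averaged 9.64% ± 2.38 of members and 22.6% ± 1.46 of other CDR3 (SD, n = 10), a difference of −13.0 ± 1.98 percentage points (exact sign-flip permutation test, p = 0.00195, adjusted p = 0.00521 over 4 genes). IGHJ2 averaged 57.0% ± 5.60 of members and 50.7% ± 2.42 of other CDR3, and was higher in members of 9 of 10 animals, all but DNP4 (difference 6.25, adjusted p = 0.00521 in the same exact test). For CDR3 with a charge of −3 or less the IGHJ2 difference was 3.14 and did not pass (adjusted p = 0.336, exact test), and that of IGHJ4 was 12.02 (adjusted p = 0.00781, exact test). IGHJ4 averaged 21.7% ± 6.84 of members and 15.6% ± 3.10 of other CDR3, and was higher in members of 9 of 10 animals, all but DNP3 (difference 6.11, adjusted p = 0.00521, exact test). IGHJ1, at 11.7% ± 1.94 of members and 11.04% ± 1.21 of other CDR3, did not pass (difference 0.626, adjusted p = 0.215, exact test).

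Part of this is fixed by the rule, because the residues that an IGHJ gene contributes count toward the charge. An aspartate stood next to last in 84.1% ± 2.20 of the members and in 63.6% ± 1.32 of the other CDR3 (SD, n = 10). The charge was therefore also taken over the CDR3 without its first 2 and last 4 residues, a choice made after seeing the data. This core was negatively charged, at −2 or less, in 23178 unique CDR3, of which 18405 were members by the whole loop as well. With the core charge, IGHJ3 was higher in the negatively charged CDR3, by 3.68 percentage points, and IGHJ2 was lower, by 5.13 (exact sign-flip permutation test, adjusted p = 0.0156 and 0.00781). IGHJ1 was lower, with a difference of −1.79 (adjusted p = 0.00781, exact test), and IGHJ4 no longer passed (difference 3.24, adjusted p = 0.0996, exact test). The directions for IGHJ2 and IGHJ3 thus differed between the charge of the whole CDR3 and that of its core. The first 2 and last 4 residues were left out together, and the J end alone was not tested. Negatively charged CDR3 remained longer with the core charge, by 1.89 residues (p = 0.00195, exact test).

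**Figure D3:**
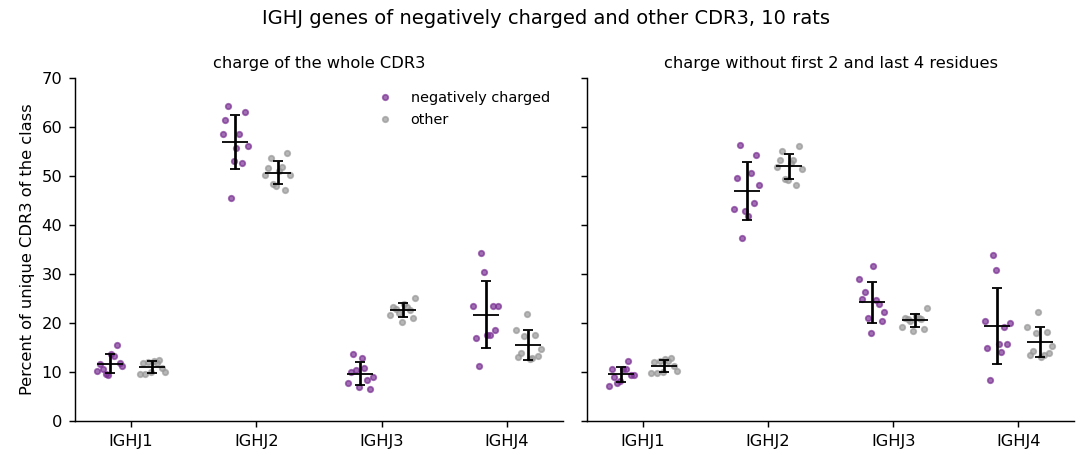
Percent of unique CDR3 with each IGHJ gene among negatively charged and other CDR3, for the charge of the whole CDR3 (left) and of the CDR3 without its first 2 and last 4 residues (right), with a point per rat and bars for mean and SD of 10 rats. IGHJ3 lies lower in members on the left (9.64% and 22.6%) and higher on the right (24.2% and 20.5%).

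No IGHJ gene passed the threshold between the immunogens. For IGHJ1 the share of members was 13.7%, 13.2%, 15.4%, 11.8% and 11.2% in HuD1 to HuD5, against 10.1%, 11.6%, 10.7%, 9.56% and 9.44% in DNP1 to DNP5. Only HuD5 lay within the range of the DNP animals. The difference of 2.79 percentage points (13.1% ± 1.67 and 10.3% ± 0.876, SD, n = 5 each) had an exact permutation p of 0.0159, or 0.0635 when adjusted over 4 genes. Without HuD5 it was 3.26, with an adjusted p of 0.0317 (exact test). Leaving out a DNP animal did not make it pass. The adjusted p was then 0.159 without DNP1, DNP4 or DNP5, 0.127 without DNP3 and 0.0635 without DNP2 (exact test). The other 3 genes had adjusted p-values of 0.881 in the same permutation test.

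IGHV use of members differed from that of other CDR3 for 28 of 68 genes tested, 41.2% of them, in edgeR's quasi-likelihood test on numbers of unique CDR3 with the animal as a block and Benjamini-Hochberg adjustment. Of these genes, 7 were used more and 21 less by members. The clearest gain was in IGHV5-20, which was also the gene that members used most, with 13.4% ± 2.02 of members and 8.54% ± 2.40 of other CDR3 (SD, n = 10, higher in 9 of 10 animals). Among other CDR3 IGHV5-25 was used most, at 11.3%. Its log2 fold change was 0.70 ± 0.13 (SE), with an adjusted p of 0.000274 in edgeR. IGHV5-19 held 4.94% ± 3.05 of members and 2.60% ± 1.47 of other CDR3, was higher in 10 of 10 animals, and had a log2 fold change of 0.86 ± 0.18. The largest gain passing the threshold was in IGHV2-77, at 0.345% of members and 0.122% of other CDR3, with a log2 fold change of 1.28 ± 0.32 (SE). The other 4 genes that were higher, named after their values were seen, were IGHV5-27, IGHV10-5, IGHV2-30 and IGHV2-41, with log2 fold changes of 0.61, 0.98, 0.49 and 0.46.

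Among the 21 genes used less, IGHV3-1 and IGHV5-22 weighed most in numbers, and both were singled out after their values were seen or by their high share. IGHV3-1 held 2.07% ± 1.31 of members and 4.49% ± 2.43 of other CDR3 (SD, n = 10), was lower in members of 10 of 10 animals, and had a log2 fold change of −1.18 ± 0.14 (SE, edgeR adjusted p = 4.73e-07). IGHV5-22 held 3.95% ± 1.05 of members and 7.21% ± 4.35 of other CDR3, with a log2 fold change of −0.72 ± 0.17. The largest falls belonged to rare genes. IGHV1-28, IGHV1-57, IGHV5-43, IGHV5-35, IGHV1-60, IGHV3-4, IGHV1-43, IGHV2-27 and IGHV2S61 had log2 fold changes between −1.89 and −1.35, and of these only IGHV1-43 held more than 1% of other CDR3, at 1.81% against 0.738% of members. Of the 10 genes with the highest mean share among members, IGHV5-25, IGHV5-31, IGHV5-7, IGHV5-29, IGHV5S13, IGHV5S10 and IGHV2-6 did not pass the test. The mean of IGHV2-6, 3.44% ± 9.40 of members, was set by DNP3, where it held 30.2% of them.

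Of the 7 genes that gained, 5 often lacked a positive charge at the second residue of the CDR3. Lysine or arginine stood there in 59.0% of the unique CDR3 with IGHV5-20, 35.6% of those with IGHV5-19, 44.9% with IGHV5-27, 20.3% with IGHV2-77 and 3.15% with IGHV10-5. It stood there in 87.5% of the CDR3 with IGHV3-1 and 86.4% of those with IGHV5-22. IGHV2-30 and IGHV2-41 did not follow this, at 93.6% and 87.7%. Nor did a low share go with a gain throughout. Of the 9 tested genes with lysine or arginine there in under 40% of their CDR3, 3 were higher in members and 6 did not pass, among them IGHV5S10 at 33.7% and IGHV6-6 at 6.45%. Over all genes, the second residue was lysine or arginine in 52.7% ± 6.22 of members and 75.6% ± 4.77 of other CDR3 (SD, n = 10). Members began with TT in 15.0% ± 3.52 and with AT in 14.4% ± 4.33, against 5.66% ± 0.851 and 6.93% ± 2.71 of other CDR3. These values describe what the rule counted and are no test.

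With the core charge 37 of 68 genes passed, of which 19 were among the 28 genes and had the same direction. IGHV2-30 and IGHV2-41 remained higher, with log2 fold changes of 0.61 and 0.98 (edgeR, adjusted p = 0.00581 and 0.000563). IGHV3-1, IGHV1-43, IGHV5-22 and IGHV2-27 remained lower, at −1.15, −1.27, −0.66 and −0.91. IGHV5-20, IGHV5-19 and IGHV5-27 no longer passed, at 0.21, −0.21 and −0.15 (adjusted p = 0.184, 0.329 and 0.485 in edgeR), and IGHV10-5 turned round, to −1.34 (adjusted p = 0.00445). IGHV2-77, the largest gain with the whole charge, was at −1.04 (adjusted p = 0.0599).

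The CDR1 and CDR2 loops, which are encoded by the IGHV gene and were not used in the rule, showed no detectable difference in charge beside negatively charged CDR3. Their summed net charge was averaged over the reads of each CDR3 and then over the unique CDR3 of an animal. It was −0.718 ± 0.145 for members and −0.717 ± 0.0688 for other CDR3 (SD, n = 10), a difference of −0.000894 ± 0.136 (exact sign-flip permutation test, p = 0.994). DNP3 stood apart, with −0.356 for members and −0.712 for other CDR3. Without any 1 animal the difference ranged from −0.0405 to 0.0107. The lowest value was that without DNP3 (exact sign-flip permutation test, p = 0.0664).

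Between the immunogens, 0 of the 68 IGHV genes (0%) passed in members (edgeR, quasi-likelihood test), with 19 at an unadjusted p under 0.05. DESeq2 called 6 genes, and without DNP2 edgeR called 19, so that this count rested on that animal. Of the 10 genes that members used most, IGHV2-6 had the largest log2 fold change, −3.99 ± 1.31 (SE, edgeR adjusted p = 0.137), with 30.2% of the members in DNP3 and at most 0.987% in any other animal. IGHV5-29 came next. It was used by 6.77%, 8.08%, 9.48%, 16.3% and 7.94% of the members in HuD1 to HuD5, against 0.611%, 7.15%, 0%, 0.748% and 1.04% in DNP1 to DNP5. All DNP animals but DNP2 lay far below the HuD animals. The log2 fold change was 2.32 ± 0.91 (SE), with an edgeR adjusted p of 0.148. In the test of whether the difference between members and other CDR3 itself depended on the immunogen, 0 of 68 genes (0%) passed, with 6 at an unadjusted p under 0.05. Without HuD3 it called 3 genes, and DESeq2 called 0.

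Among the residues that carry no charge, tyrosine was more frequent in members. It made up 26.1% ± 1.95 of the residues other than D, E, K and R in members and 21.6% ± 1.07 in other CDR3 (SD, n = 10), and was higher in 10 of 10 animals (exact sign-flip permutation test, adjusted p = 0.00781 over 16 residues). Threonine was at 10.4% ± 1.61 and 8.06% ± 0.436 (adjusted p = 0.00893, exact test). Alanine, at 11.7% ± 1.69 and 13.98% ± 1.13, and asparagine, at 2.83% ± 0.389 and 3.84% ± 0.226, were lower in members of all 10 animals (adjusted p = 0.00781 each, exact test). Proline, isoleucine, glutamine, tryptophan, histidine and leucine were also lower, and cysteine was slightly higher, so that 11 of 16 residues passed in all. Leucine no longer passed with CDR3 of at least 2 reads, with a charge of −3 or less or with histidine counted as positive (adjusted p = 0.422, 0.279 and 0.409, exact test). Isoleucine no longer passed at −3 or less, nor glutamine with histidine counted (adjusted p = 0.0795 and 0.106, exact test). With the core charge tyrosine stayed higher, by 5.71 percentage points (adjusted p = 0.00625, exact test). Threonine did not, at −0.611, and tryptophan, at 0.177, also lost its direction. The charged residues themselves, which defined the members, averaged 2.28 ± 0.134 aspartates, 0.616 ± 0.0834 glutamates, 0.559 ± 0.0742 arginines and 0.0572 ± 0.0131 lysines per member. Other CDR3 had 1.02, 0.180, 1.11 and 0.119 of them. No lysine or arginine at all was present in 42.9% ± 6.02 of members and 14.6% ± 3.61 of other CDR3.

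Members were less often expanded than other CDR3. A CDR3 was called expanded with at least 2 reads in the animal. This held for 22.5%, 12.8%, 19.6%, 13.9% and 19.5% of the members in HuD1 to HuD5, against 25.5%, 18.4%, 24.6%, 18.7% and 24.7% of their other CDR3. In DNP1 to DNP5 it held for 24.2%, 17.4%, 37.6%, 20.03% and 18.5% of the members, against 30.0%, 21.7%, 39.0%, 26.8% and 25.2% of the other CDR3. The share of members was the lower one in each of the 10 animals. The mean difference was −4.87 ± 1.65 percentage points (20.6% ± 6.88 and 25.5% ± 5.94, SD, n = 10, exact sign-flip permutation test, p = 0.00195). At the same length distribution it was −4.67 (p = 0.00195, exact test). With all libraries thinned to 60647 reads it was −4.67 as well. Members with at least 5 reads made up 10.8% ± 2.79, against 13.3% ± 2.71 of other CDR3, and the mean was 5.35 ± 1.27 reads per member and 7.90 ± 1.39 per other CDR3 (p = 0.00195 for both, exact test). The difference in expansion was −4.72 ± 0.997 in HuD and −5.02 ± 2.25 in DNP animals (SD, n = 5 each), 0.304 apart (exact permutation test, p = 0.778).

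The decline was largest from CDR3 with 1 read to those with more, and again at the top. Of the CDR3 with 1 read, 14.2% ± 1.16 were negatively charged (SD, n = 10). The shares were 10.8% ± 1.51 at 2 to 4 reads, 11.3% ± 1.16 at 5 to 19 reads and 11.5% ± 1.88 at 20 to 99 reads. Between these 3 bins the differences were smaller than the spread between animals. At 100 reads or more it was 9.08% ± 1.90, from 6.25% in HuD3 to 13.3% in DNP3. Of the 100 CDR3 with the most reads in an animal, 8.30% ± 2.75 were negatively charged, against 13.4% ± 1.12 of all unique CDR3 (exact sign-flip permutation test, p = 0.00195).

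**Figure D4:**
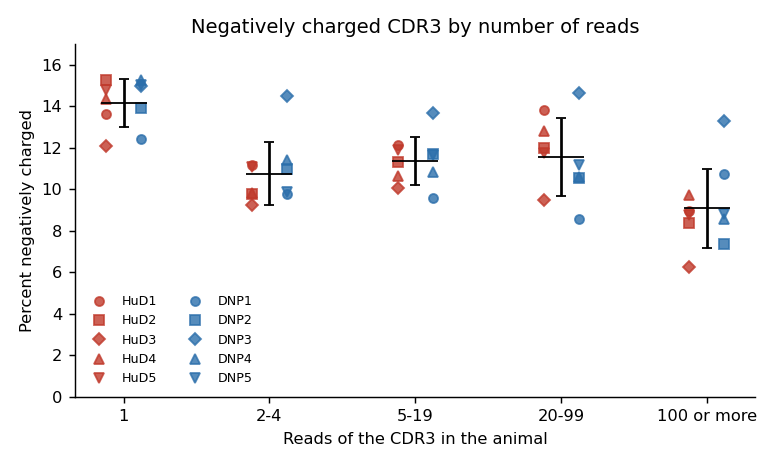
Percent negatively charged among CDR3 with 1, 2 to 4, 5 to 19, 20 to 99 and 100 or more reads in an animal, with a point per rat (HuD left, DNP right of each position) and bars for mean and SD of 10 rats. The mean is 14.2% at 1 read and 9.08% at 100 reads or more, and DNP3 is the highest animal in the 4 bins above 1 read.

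Reads with many sequenced copies stood out among the members. The deposited copy number says how many sequenced copies carried the tag of a read. Among CDR3 with a single read, 13.2% ± 0.798 (SD, n = 10) were negatively charged when that read had 1 copy. At 5 to 9 copies the share was 24.1% ± 4.84 and at 10 to 19 copies 36.9% ± 11.7 (SD, n = 9 animals with such CDR3). Pooled over the animals, 42.4% of the 1303 such CDR3 with 20 copies or more were negatively charged. Framework 4, which follows the CDR3 and starts with the motif WGxG (x is any residue) in functional J genes, was often disrupted in these reads. The motif was present in 99.1% of the negatively charged and 99.1% of the other reads of 1 copy. With 20 copies or more it was present in 37.1% of the negatively charged and 89.8% of the other reads. Negatively charged reads of 20 copies or more ended the CDR3 in DD in 21.9% of cases, against 1.11% at 1 copy. Whether such reads are true transcripts or arose in sequencing or in the collapsing of tags was not tested. The part of such reads in the results was measured by leaving them out, a choice made after seeing the data. Using only reads with the WGxG motif removed 1.04% of the members in DNP3 to 12.2% in HuD2.

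The results changed little without these reads. Members were longer by 1.38 residues, less often expanded by 4.38 percentage points and lower in IGHJ3 by 12.9 points (exact sign-flip permutation test, p = 0.00195 before adjustment for each). The shares of unique CDR3 differed by −0.245 percentage points between HuD and DNP animals (exact permutation test, p = 0.770). Of the 28 IGHV genes, 25 kept their call and direction, and IGHV2-30, IGHV2-41 and IGHV5-17 no longer passed, at log2 fold changes of 0.46, 0.42 and −0.38 (edgeR adjusted p = 0.0516, 0.0898 and 0.0715), against 0.49, 0.46 and −0.36 with all reads. IGHJ1 then passed as higher in members, by 1.13 points (adjusted p = 0.0449, exact test). The gain in cysteine was lost, at 0.0136 points (adjusted p = 0.565, exact test).

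**Figure D5:**
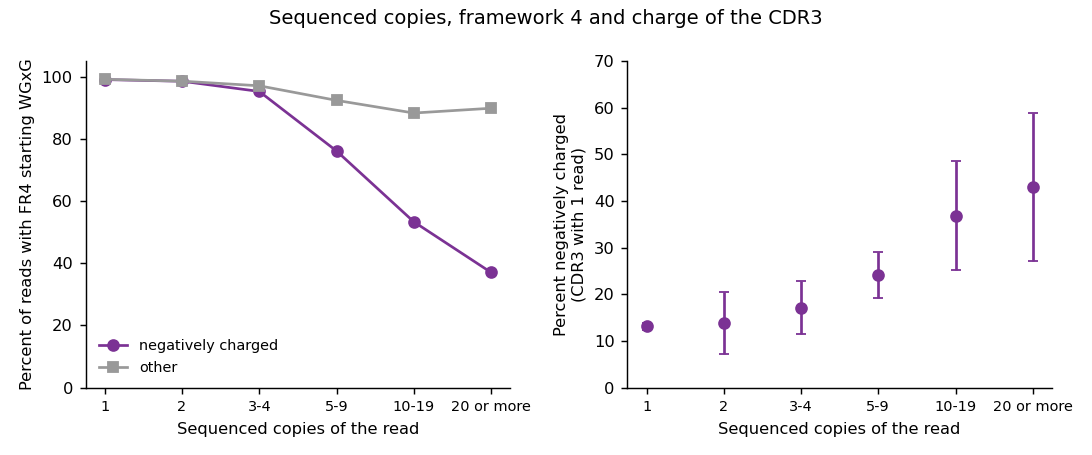
Percent of reads with the WGxG motif in negatively charged and other CDR3 by sequenced copies of the read (left, all animals pooled), and percent negatively charged among CDR3 with 1 read (right, mean and SD over the animals with such CDR3). At 20 copies or more the motif is present in 37.1% of negatively charged and 89.8% of other reads.

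Negatively charged CDR3 were more private to an animal than other CDR3. They were also read in another animal in 2.67% ± 0.461 of cases, against 6.88% ± 1.62 of other CDR3 (SD, n = 10), and lower in 10 of 10 animals (difference −4.21, exact sign-flip permutation test, p = 0.00195). The test assumes independent differences, but a shared CDR3 counts in every animal that holds it. This limit holds for all tests of sharing given here. Short CDR3 are shared more often, and at the same length distribution the difference was −1.91 (p = 0.00195, exact test). The size depended on the unit and the rule. With CDR3 linked by 1 residue counted once and length not matched the difference was −1.35, and with the core charge at matched length it was −0.673 (p = 0.00195 for both, exact test). Of the 29725 members, 29410 were read in 1 animal, 243 in 2, 49 in 3, 13 in 4 and 10 in 5 to 9 animals, and none in all 10. Of the 315 shared members, 101 were read in HuD animals alone, 64 in DNP animals alone and 150 in both, which are 32.1%, 20.3% and 47.6%. For the 4928 shared other CDR3 the parts were 31.2%, 20.9% and 47.9%. The HuD libraries were larger on average, and the part of their size in these numbers was not tested.

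The members read in most animals formed a family of 9 residues. VREELGVDY had 11, 0, 1, 13 and 10 reads in HuD1 to HuD5, and 4, 2, 1, 66 and 48 in DNP1 to DNP5. VREDLGVDY had 26, 1, 5, 19 and 2 reads in HuD1 to HuD5, and 2, 6, 0, 2 and 3 in DNP1 to DNP5. Both had low numbers of reads. They were picked as read in most animals, and with 5 animals per immunogen any CDR3 read in more than 5 occurs with both. The pattern of any residue, R, E, D or E, any residue and GVDY, chosen after these sequences were seen, covered 51 members with 606 reads. They were found in all 10 animals, with 37 to 107 reads per HuD animal and 1 to 114 per DNP animal. Of their reads, 85.5% were annotated as IGHV4-2, 96.4% as IGHJ2 and 76.9% as IGHD4-3. Of the 51, 21 were shared between animals, which was 6.67% of all shared members. WGxG was present in 98.5% of these reads, and 87.3% of them had 1 copy.

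Another 5 of the 10 most shared members were read in 5 animals each. They were TRDLYDFDY, ATDNNYFDY, TTDWELYY, TTDNNYFDY and TTDGDY, with 45, 28, 16, 12 and 6 reads in all. TRDLYDFDY had 1, 10, 2, 16 and 16 reads in HuD1 to HuD5 and none in the DNP animals. Its 45 reads among 940526 HuD reads were 47.8 per 1000000 reads, and 0 of 675370 DNP reads allow up to 4.44 per 1000000 (3 counts over the group), which covers counting error only. HuD1 and HuD3 had 1 and 2 of the reads, and edgeR gave an adjusted p of 0.0743. It was selected for this pattern, and the values are a description. ATDDNYFDY, the only other member read in at least 4 animals of 1 immunogen and in none of the other, had 5 reads in 4 HuD animals.

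The number of reads of single CDR3 was compared between immunogens for the 1364 CDR3 read in at least 3 animals, of which 72 were members. No CDR3 passed the threshold, 0% of those tested (edgeR, quasi-likelihood test). At an unadjusted p under 0.05 there were 449 CDR3, namely 23 of the 72 members and 426 of the 1292 other CDR3. Of these 23, 17 had reads with 1 immunogen only and so met the filter of 3 animals through the group where they are high, and nothing is read from this count. DESeq2 called 22 of all 1364 CDR3, and with CDR3 read in at least 5 animals edgeR called 19 of all those tested. How many of these calls were members was not counted. The median log2 fold change of HuD over DNP was 0.61 for members and 0.61 for all CDR3 tested.

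The most abundant members each held a small part of the reads of their animal but ranked among its most read CDR3. ATEDYGLTGFAY in HuD1 had 2130 reads, 1.36% of the productive reads and rank 2 among all CDR3 of that animal, with IGHV5-22 and IGHJ3. DANYDGTYYYFDY in HuD2 had 844 reads with IGHV3-3, ASLNYGGYIEEFDY in HuD3 1161 with IGHV5-25 and TRVDTMGTEDY in HuD4 1629 with IGHV5-31, all 3 with IGHJ2. TTDNYSAPFDY in DNP1 had 877 reads, ARHEATEGIDFDY in DNP2 367, ASYYYDGYYAMDA in DNP4 1294 and ATEDYGYPFAY in DNP5 350. In HuD5 and DNP3 the most abundant member had 17 residues, with 1278 and 376 reads. Ranks of these 10 sequences among all CDR3 ran from 2 in HuD1 to 31 in DNP2. WGxG was present in at least 99.5% of the reads of each.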

How the data were processed

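The deposited files list, for 10 splenocyte libraries sequenced in 1 MiSeq run, the sequences that the authors merged with PEAR, collapsed by tag with MIGEC and annotated with High-VQuest. The germline set and the versions of these tools were not given in the sources used. According to the paper, 10 bases of the CDR3 were added to the tag, which had been too short. Tags with 1 copy were kept, and 1358093 of the 1615896 productive reads had 1 copy. The deposited count of each sequence is the number of copies with its tag, used here only for alternatives. A line called productive was used as 1 read, and unique CDR3 per animal were the units. The first IGHV gene named was taken (17.0% of reads of members and 14.1% of all name several).

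Shares were computed in numpy 2.4.6, scipy 1.17.1 and pandas 2.3.3 under Python 3.11.15 and drawn with matplotlib 3.10.9. HuD and DNP animals were compared by two-sided exact permutation over all sets of 5 of the 10 animals (smallest p 0.00794), classes within animals by exact sign flips over 10 animals (smallest p 0.00195). IGHV genes with at least 100 unique CDR3, and CDR3 read in at least 3 animals, were tested with edgeR 4.0.16 in R 4.3.3 (TMM, quasi-likelihood, Benjamini-Hochberg, threshold 0.05), with DESeq2 1.42.0 as an alternative. The exact tests and the edgeR fits for IGHV between classes, IGHV between immunogens and single CDR3 were tried on simulated data. The interaction fit and DESeq2 were not. Named were the member with most reads per animal, the 10 read in most animals, those read in at least 4 animals of 1 immunogen alone, the 10 IGHV genes that members used most, at most 10 with the largest change past the threshold, all IGHJ genes, and the CDR3 of lowest charge. Members, lists and tests were chosen with earlier results of these data known. Animals with the same number are different rats, and their IGHV use gave correlations of deviations of 0.0325 to 0.352, not all above 0.1, so that numbers were not treated as pairs. The mean of these correlations was 0.173, against −0.0338 for HuD and DNP animals with different numbers, and results with the number as a block are given below. Alternatives varied the charge threshold, histidine, reads per CDR3, thinning, length, the filters, the tool and the animals.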

Additional observations from a re-analysis of the deposited data

Results flagged for a closer look

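In 20 measures of the members, each examined in the 5 HuD and the 5 DNP animals, 4 values from 3 animals stood apart from those of the other 4 animals by Dixon's 95% criterion (critical value 0.71 for the gap over the range). Chance flags about 1 in 20 such groups. In HuD5 the mean length of negatively charged CDR3 was 13.7 residues, against 12.9 to 13.1 in the other HuD animals. The other CDR3 of HuD5 also had the highest mean length of the HuD animals, at 12.2 residues. Its 18-residue group of 142 members made up 3.68% of its members, and the part of this group in the mean length was not tested. In HuD5, IGHJ4 was higher in members by 8.94 percentage points, against 4.68 to 5.82 in the other HuD animals. In HuD3, IGHJ1 was higher in members by 3.03 points, against 0.961 to 1.42 in the others. In DNP3 the charge of CDR1 and CDR2 was higher in members than in other CDR3 by 0.356, against −0.105 to −0.0525 in the other DNP animals, and DNP3 was the smallest library, with 30.2% of its members in IGHV2-6.

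The IGHJ1 difference between members and other CDR3 was compared between the immunogens. It was 1.58 ± 0.824 percentage points in HuD and −0.330 ± 1.40 in DNP animals (SD, n = 5 each), and these values differ by 1.91 (p = 0.0159, exact permutation test). After adjustment over 8 such differences the p was 0.127, so that it did not pass. The other 7, for length, expansion, sharing, CDR1 and CDR2 charge and the remaining IGHJ genes, had unadjusted p-values from 0.167 to 0.992 in the same exact test.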

How the results depend on the processing

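The differences in length, expansion and sharing between members and other CDR3, also at matched length, moved in size for sharing but kept their direction and passed the threshold under all alternatives that gave a value. With CDR3 of at least 2 reads only, expansion has no value. With 1 animal left out in turn, the read share differed by 0.478 to 1.40 points (HuD minus DNP), IGHJ genes between the immunogens gave 0 to 1 calls, IGHV genes between them 0 to 19, the IGHV interaction 0 to 3 and IGHV between classes 24 to 29. For IGHV between the immunogens, 6 genes passed with DESeq2, 1 at a charge of −3 or less and 2 with the replicate block. The interaction gave 2 with the core charge. Single CDR3 gave 22 calls with DESeq2 and 19 among those read in at least 5 animals. IGHV between classes gave 0 calls without the animal as a block. With the core charge IGHJ2 (−5.13), IGHJ3 (3.68), threonine (−0.611) and tryptophan (0.177) turned round. Cysteine turned round with at least 2 reads (−0.0258) and with reads of fewer than 5 copies (−0.0193). The cause was not tested. Animals with the same number were not paired by origin. With the replicate block the difference in unique share (−0.194) had p = 0.875 in an exact permutation test over 5 pairs, which cannot give less than 0.0625, and 4 of 10 animals correlated best with their own number. Of 584 planned and 192 added alternatives, 562 and 176 were counted as unchanged. A single value counted so when it stayed on the same side of the threshold. It had to keep its direction only if it had passed. The difference in unique share, for instance, was 0.319 with histidine counted and did not pass either. A number of calls counted so when its size stayed similar. Most members rest on 1 read, which limits statements on single CDR3.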

Other observations

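Very low charges were most frequent in DNP4. CDR3 with a net charge of −5 or less held 159 reads in DNP4, or 6.12 per 10000 productive reads, of which 146 used IGHJ4. The other animals had 7 to 49 such reads each, or 0.416 to 3.96 per 10000, the highest of these in DNP3. In DNP4 these reads had 7.59 copies on average, against 1.45 in its library, and 101 of the 159 carried WGxG. In DNP3, 24 such reads had 1.08 copies on average and all 24 carried the motif. The lowest net charge was −8, in 4 CDR3 of 16 to 17 residues with 1 read each in the same DNP animal, and none of these 4 reads carried the motif. The mean copy number over all animals was 7.84 at a charge of −5, 1.44 at −2 and 1.61 for neutral CDR3. Of the 30159 members counted per animal, 5497 differed at 1 residue from a CDR3 with at least 10 times their reads, and for 1480 of them that CDR3 was not negatively charged. Per animal, a CDR3 of at least 10 times the reads lay 1 residue away for 13.8% to 29.7% of members and for 17.1% to 24.6% of other CDR3.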
